A study of Mus musculus with 41 samples.

Results

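The cytochromes P450 of families 1 to 3 are heme enzymes of the endoplasmic reticulum that oxidise drugs, toxins, steroids, fatty acids and bile acids. In liver they are made mostly by hepatocytes, and several are confined to one end of the lobule, near the central vein or near the portal tract. Receptors and hormones set much of their transcription. The nuclear receptors CAR and PXR answer foreign chemicals and bile acids, and the aryl hydrocarbon receptor (AhR) answers planar aromatic compounds. Growth hormone makes some members female-biased or male-biased. Members were all genes whose symbols begin with Cyp1, Cyp2 or Cyp3, then hold a letter for the subfamily and a number. There were 56 among 24511 genes in the table, and 2 further genes with such symbols were not used here. The values of 54 members varied over the libraries, and Cyp2c66 and Cyp2t4 were constant.

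Gene expression was measured by polyA RNA-seq in liver and liver tumour of male C57BL/6 mice. On a high-fat diet (HFD) there were fatty livers called healthy (HFD control, genotypes B6 and IgAkCLM), livers with steatohepatitis (NASH, genotypes MupHe and IgAkMup) and hepatocellular carcinomas (HCC, genotypes MupHe, IgAkMup and CD8kMup). Healthy livers of genotypes B6, MupHe, IgAkMup and CD8kMup formed the NC groups. The labels explain neither NC nor the genotype names, and they give no age, Cre driver, promoter or count of animals. In all, 35 libraries in 11 groups were used, 4 each for the tumours of MupHe and IgAkMup and 3 for every other group. Nothing in the labels says that replicates came from separate animals, so the p-values rest on the scatter among these libraries, which may be technical.

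Values are regularized log2 (rlog) values, so a difference of 1 is a doubling. They are not divided by gene length, so levels are compared within a gene only. Of the varying members, 39 averaged 3 or more across the libraries and were tested. The other 15 varying members had means from -2.39 to 2.71 and are described at the end. A member is called higher or lower where its adjusted p in the limma fit over 12337 genes was under 0.05. Errors are standard errors (SE) of differences from that fit. Tags of unknown meaning stand in the column names (Tri NC for NC, SS N for B6 HFD control and IgAkMup NASH, Tri N for IgAkCLM HFD control and MupHe NASH, SS H for HCC), and a tag cannot be told apart from the groups it marks. The tumours MupHe HCC 3, IgAkMup HCC 5 and IgAkMup HCC 9 stood apart from the other 8 on the second principal component of all kept genes (-35.56 to -28.45 against -5.12 to 24.72). Results that rest on them are given with and without them. They were picked from these same data, so p-values without them are descriptions only. Without them, IgAkMup HCC 7 and IgAkMup HCC 8 are the only IgAkMup tumours. Depth is unknown.

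Most members lie in 5 gene clusters. In the GENCODE annotation of the mm10 genome (GRCm38), Cyp2j members span chr4:96027534-96664154, Cyp2d members chr15:82370527-82794294 and Cyp2c members chr19:39007019-40187333. On chromosome 7 the Cyp2b, Cyp2a, Cyp2g and Cyp2f genes lie side by side, from Cyp2b10 (chr7:25897620-25926624) through Cyp2b13, Cyp2b9, Cyp2a4, Cyp2a5 and Cyp2a22 to Cyp2f2 (chr7:27119909-27133660). Such genes arose by duplication, and some remain nearly identical. Of the 50-base windows in the transcripts of Cyp2c40, 60.3% also occur in transcripts of another gene, and for Cyp2c69, Cyp2c67 and Cyp2c68 the shares were 54.3%, 52.8% and 43.3%. The share was 38.0% for Cyp2a4 and 37.0% for Cyp2a5, 35.8% for Cyp2d10, 30.1% for Cyp2c37 and 27.3% for Cyp2b13. The share was 0% for Cyp2f2, Cyp2r1, Cyp2c70, Cyp3a13 and Cyp2j9. How reads that fit several genes were counted is not given in the sources used here, so values of members with shared windows may mix neighbours. Cyp2c44 and Cyp2d13 had no GENCODE match, so they are in neither the spans nor the shares.

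The promoter sequences show how close some pairs are. They are shown because both pairs recur in the results. These bases lie ahead of the transcripts, so they do not show whether reads can be told apart. By transcript windows, the share also found in another gene was 11.2% for Cyp2b9. Below are 150 bases from RefSeq (GRCm38.p6) ahead of the annotated exons, read 5′ to 3′, with capitals at the bases that differ within a pair. Cyp2a4 is at chr7:26307009-26307158 (+) and Cyp2a5 at chr7:26835155-26835304 (+).
Cyp2a4: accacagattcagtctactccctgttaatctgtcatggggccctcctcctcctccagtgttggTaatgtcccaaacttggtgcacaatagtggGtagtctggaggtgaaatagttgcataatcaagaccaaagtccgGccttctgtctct
Cyp2a5: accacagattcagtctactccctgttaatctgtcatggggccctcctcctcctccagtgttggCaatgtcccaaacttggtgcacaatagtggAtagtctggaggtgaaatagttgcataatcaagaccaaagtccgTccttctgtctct
Counted from 1 at the 5′ end, the differences from Cyp2a4 to Cyp2a5 are T64C, G94A and G138T. Cyp2b9 is at chr7:26173259-26173408 (+) and Cyp2b13 at chr7:26061345-26061494 (+), with C4T as the single difference from Cyp2b9 to Cyp2b13.
Cyp2b9: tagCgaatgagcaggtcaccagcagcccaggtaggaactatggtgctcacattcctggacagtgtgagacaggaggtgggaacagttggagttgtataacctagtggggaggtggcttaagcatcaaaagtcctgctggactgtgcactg
Cyp2b13: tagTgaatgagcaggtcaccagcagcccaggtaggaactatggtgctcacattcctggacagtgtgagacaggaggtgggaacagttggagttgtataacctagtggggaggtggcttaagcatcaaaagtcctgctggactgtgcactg

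The next sequences belong to 3 Cyp2c members with some of the largest tumour differences and to Cyp2b10, the relative of Cyp2b9 that was not called higher in B6 HFD control. Capitals mark the letters CAAAGT, the core of sites bound by the hepatocyte factor HNF4, searched on both strands. Each run is 120 bases of the same RefSeq table, at chr19:39286954-39287073 for Cyp2c29, chr19:39992304-39992423 for Cyp2c37, chr19:40089559-40089678 for Cyp2c50 and chr7:25897500-25897619 for Cyp2b10, all on the plus strand.
Cyp2c29: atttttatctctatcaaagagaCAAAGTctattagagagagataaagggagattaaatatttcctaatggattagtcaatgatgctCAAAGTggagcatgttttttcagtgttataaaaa
Cyp2c37: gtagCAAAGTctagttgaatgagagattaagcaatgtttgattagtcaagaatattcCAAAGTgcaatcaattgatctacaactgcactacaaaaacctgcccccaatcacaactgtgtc
Cyp2c50: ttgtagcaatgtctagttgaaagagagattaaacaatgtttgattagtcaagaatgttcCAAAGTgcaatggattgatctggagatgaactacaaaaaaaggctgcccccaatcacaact
Cyp2b10: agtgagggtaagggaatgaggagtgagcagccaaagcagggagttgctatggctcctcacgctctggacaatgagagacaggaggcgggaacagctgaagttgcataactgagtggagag
Of 32 tested members with a promoter entry, 18 held CAAAGT in the 250 bases before the start (56.2%), against 14.1% of all 27025 genes in that table. The longer CAAAGTCC, which overlaps it, was in 7 of the 32 (21.9%) against 1.38% of all, among them Cyp2a4, Cyp2a5 and Cyp3a11. TATAAA was in 16 of the 32, against 14.3% of all, TTGCNNAA (C/EBP) in 28.1% against 10.8%, and GTTAAT (HNF1) in 15.6% against 7.49%. TTCNNNGAA (STAT5) was in 0 of the 32, against 8.13% of all. Members of a cluster share descent, so these counts are descriptions and their promoters are not independent. Of the members with CAAAGT, Cyp2a4, Cyp2a5, Cyp2c40 and Cyp2c70 were not called lower in HCC than in NASH, and the rest were. This stands beside 30 of all 39 tested members that were lower. Members whose promoter entry lacked CAAAGT were lower too, among them Cyp2b10, Cyp2c55, Cyp2d9, Cyp2d40 and Cyp2j5. A link between these letters and the tumour differences was not tested.

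Tumours held less RNA of most members than NASH livers. In the mean of MupHe and IgAkMup, 30 of 39 tested members were lower in HCC than in NASH and 1 was higher, and the median difference was -1.10 against 0.01 over all tested genes. Over all tested genes, 22.9% were lower and 25.5% higher. In these bulk samples, fewer cells of a type and less RNA per cell cannot be told apart. Beside the fall of the P450 members, 6 of 15 genes for secreted hepatocyte proteins were lower and 1 higher, with a median of -0.07, and albumin (Alb) differed by -0.06 (SE 0.31, adjusted p = 0.89).

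**Figure D1:**
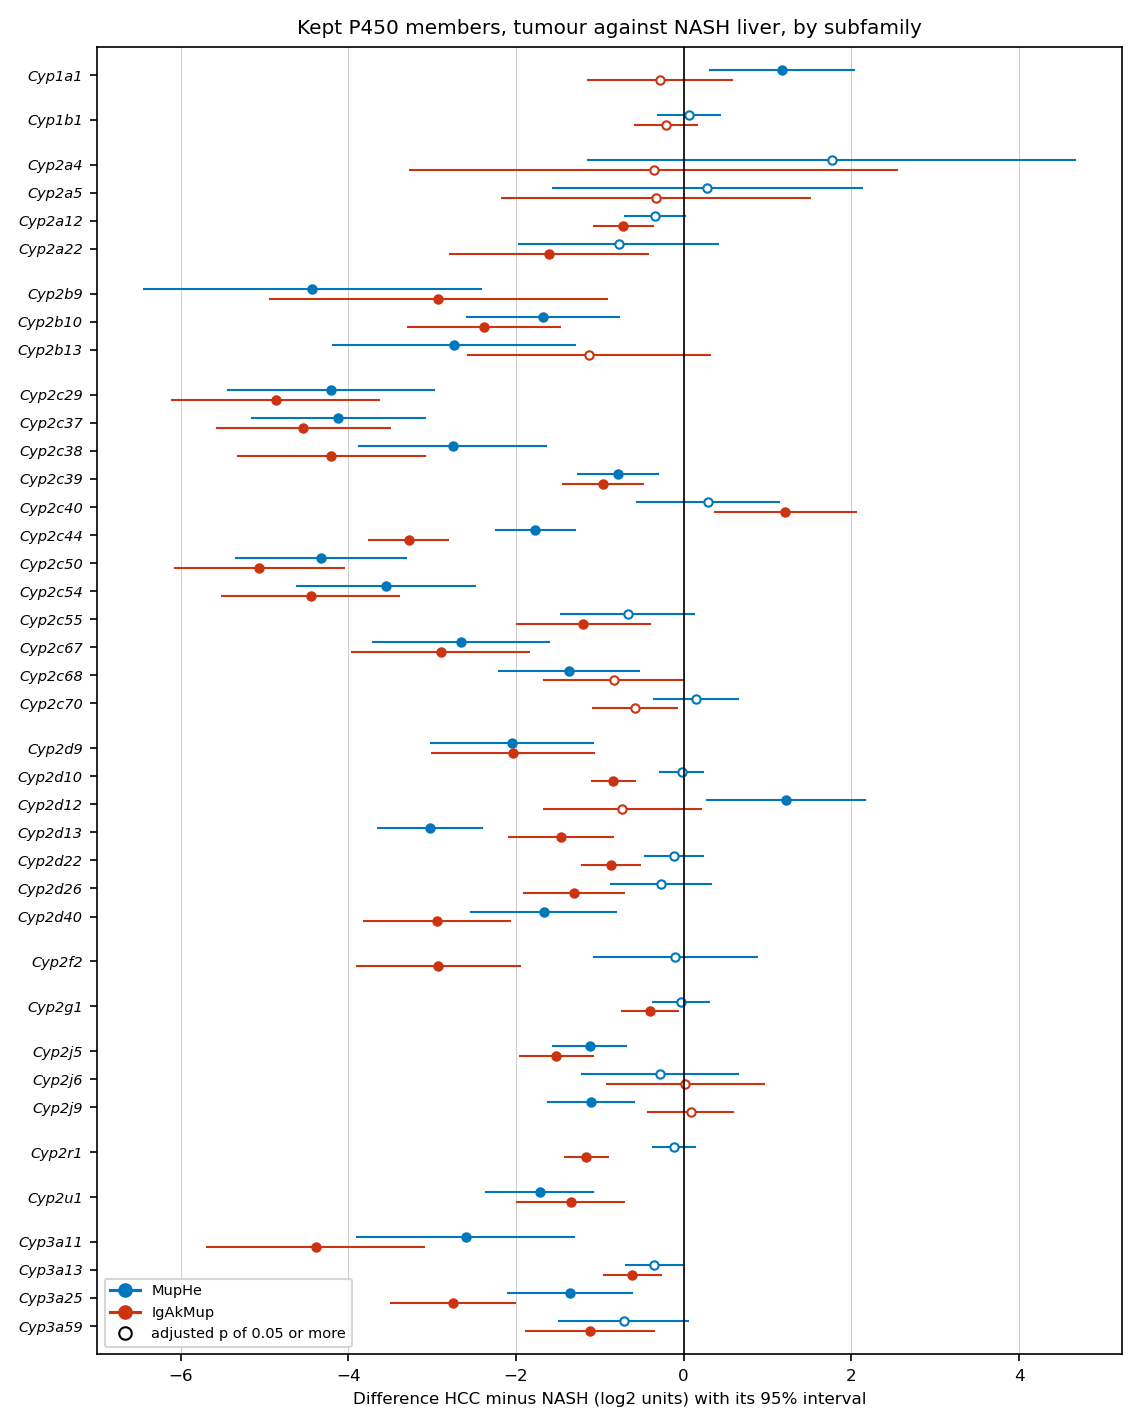
Difference between tumour and NASH liver for the 39 tested members, grouped by subfamily. The x axis is the log2 difference HCC minus NASH, points are limma estimates for MupHe (blue) and IgAkMup (red), lines are 95% intervals, and filled points have an adjusted p under 0.05. Cyp2c29, Cyp2c37, Cyp2c50 and Cyp2c54 lie below -3.5 in both genotypes, and Cyp2f2 and Cyp2r1 lie near 0 in MupHe only.

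The Cyp2c subfamily, whose members hydroxylate drugs and epoxidise arachidonic acid, fell the furthest. Of its 12 tested members, 10 were lower and 1 higher, with a median difference of -2.65. Cyp2c50 was at 11.95, 12.05 and 12.22 in MupHe NASH and at 12.47, 12.23 and 12.49 in IgAkMup NASH. In tumours it was at 9.22, 7.18, 7.13 and 7.45 in MupHe and at 8.03, 6.26, 7.80 and 7.25 in IgAkMup. Every tumour of both genotypes lay below every NASH liver. The difference was -4.69 (SE 0.35, adjusted p = 3.3e-11), a 25.9-fold lower level.

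Cyp2c29, a CAR-responsive epoxygenase, was at 12.66, 12.75 and 13.02 in MupHe NASH and at 13.29, 12.88 and 12.88 in IgAkMup NASH. Tumour values were 10.31, 6.92, 8.61 and 8.58 in MupHe and 8.46, 7.48, 9.95 and 6.71 in IgAkMup. The tumours spread over more than 3 log2 units but did not overlap with the NASH livers, and the difference was -4.54 (SE 0.43, adjusted p = 1.9e-09). Cyp2c37 differed by -4.33 (SE 0.36) and Cyp2c54 by -4.001 (SE 0.37). Cyp2c38 fell by 3.48, Cyp2c67 by 2.77 and Cyp2c44, another arachidonic acid epoxygenase, by 2.52 on the log2 scale. Smaller falls were called for Cyp2c68 (-1.10), Cyp2c55 (-0.93) and Cyp2c39 (-0.87). Without the 3 tumours that stood apart, Cyp2c55 was at -0.55 (adjusted p = 0.099).

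Cyp2c70 and Cyp2c40 were the members of the subfamily not called lower. Cyp2c70, which makes the mouse muricholic acids, differed by -0.22 (SE 0.17, adjusted p = 0.31). Without the 3 tumours that stood apart it was lower, by -0.52 (adjusted p = 0.0053). Cyp2c40 was called higher (0.75, SE 0.29, adjusted p = 0.034), with its highest tumour values at 5.15 in IgAkMup HCC 7 and 4.26 in IgAkMup HCC 8. That call ended when any of 8 single libraries was left out, and without IgAkMup HCC 7 the difference was 0.57 (adjusted p = 0.088). It also ended under quantile normalization (0.65, adjusted p = 0.069), with array weights (0.67, adjusted p = 0.13) and with no filter on low values (0.75, adjusted p = 0.052). Cyp2c40 shares more of its transcript windows with other genes than any other member matched to GENCODE.

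All 4 tested Cyp3a members were lower, with a median of -1.48. Cyp3a11, the classic PXR target and main steroid and drug oxidase of mouse liver, was between 14.11 and 14.61 in the 6 NASH livers. In tumours it was at 12.74, 8.83, 12.24 and 12.37 in MupHe and at 10.45, 10.44, 11.30 and 7.82 in IgAkMup. All 8 tumours lay below the NASH livers, MupHe HCC 3 and IgAkMup HCC 9 furthest. The difference was -3.49 (SE 0.45, adjusted p = 3.3e-07). Cyp3a25 fell by 2.05, Cyp3a59 by 0.92 and Cyp3a13 by 0.48 on the log2 scale. The Cyp3a13 call ended under quantile normalization (-0.28, adjusted p = 0.087).

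All 3 tested Cyp2b members were lower (median -2.03). Cyp2b10, the standard readout of CAR, was between 5.62 and 6.50 in NASH livers and between 3.61 and 4.84 in the 8 tumours, a difference of -2.03 (SE 0.31, adjusted p = 5.7e-06). Cyp2b9, female-biased in adult liver, differed by -3.68 (SE 0.69, adjusted p = 8.1e-05) and Cyp2b13 by -1.93 (SE 0.50, adjusted p = 0.0021). Cyp2b9 varied widely among tumours, at 7.26, 4.90, 5.28 and 7.38 in MupHe and at 6.28, 9.72, 9.79 and 4.43 in IgAkMup. NASH livers were between 10.23 and 10.92, so IgAkMup HCC 7 and 8 lay just under them. In IgAkMup the Cyp2b9 call ended without the tumours that stood apart (-0.73, adjusted p = 0.52), without IgAkMup HCC 5 alone (-2.50, adjusted p = 0.056) and without IgAkMup HCC 9 alone (-1.88, adjusted p = 0.096).

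The Cyp2a subfamily did not fall as a whole. Of 4 tested members, Cyp2a22 (-1.19, SE 0.41) and Cyp2a12 (-0.53, SE 0.12) were lower, and the Cyp2a12 call ended under quantile normalization (-0.09, adjusted p = 0.59). The Cyp2a22 call ended without the 3 tumours that stood apart (-0.54, adjusted p = 0.23). Cyp2a5, the coumarin hydroxylase, differed by -0.02 (SE 0.64, adjusted p = 0.98) and Cyp2a4, its female-biased steroid hydroxylase neighbour, by 0.71 (SE 1.00, adjusted p = 0.59). These estimates hide the widest spread among tumours of any tested member. Cyp2a4 stood at 13.02, 6.17, 11.07 and 13.80 in MupHe HCC and at 7.14, 14.65, 11.89 and 7.84 in IgAkMup HCC, against 8.22 to 11.54 in NASH livers.

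The low Cyp2a4 values of 6.17, 7.14 and 7.84 are those of the 3 tumours that stood apart, and the other 5 lay between 11.07 and 14.65. Cyp2a5 was at 8.15, 12.28 and 10.87 in the tumours that stood apart and between 12.48 and 14.64 in the other 5. Without the tumours that stood apart, Cyp2a4 was 2.96 higher in HCC than in NASH (SE 0.68, adjusted p = 0.0008) and Cyp2a5 was 1.23 higher (SE 0.35, adjusted p = 0.0052). Cyp2a4 was thus called only without these libraries, and the Cyp2a5 estimate changed sign. The 3 tumours were picked from these same data and are the lowest of both genotypes for both genes. These p-values therefore do not support a rise. Without the 3 tumours 4 members were higher, with Cyp1a1 (0.89, adjusted p = 0.013) and Cyp2c40 as the others. Then 29 were lower, where 25.2% of all tested genes were higher and 21.9% lower.

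**Figure D2:**
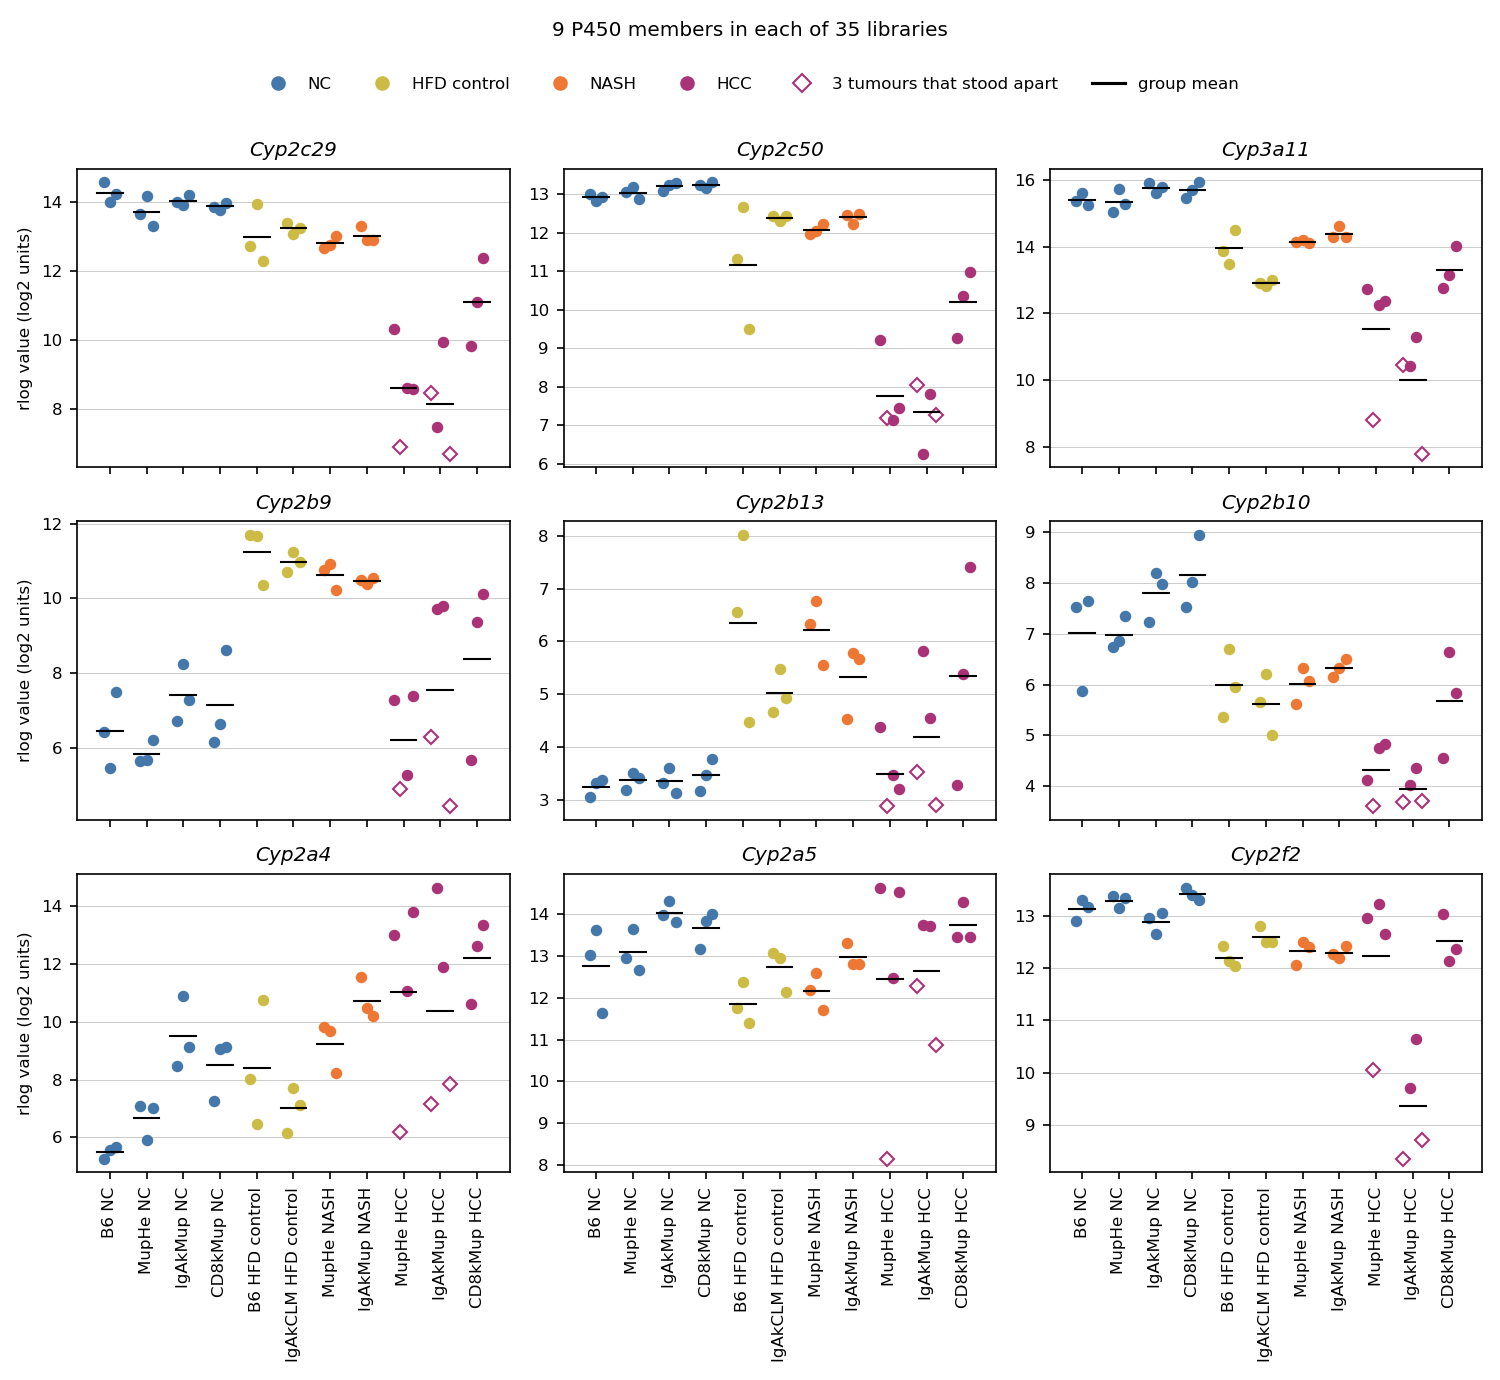
Values of 9 members in each of the 35 libraries. The y axes are rlog values in log2 units on a scale of their own per gene, groups are along the x axis, points are libraries coloured by stage, open diamonds are the 3 tumours that stood apart, and black lines are group means. Cyp2c29, Cyp2c50 and Cyp3a11 are lowest in MupHe and IgAkMup tumours, and Cyp2b9 is highest on the high-fat diet outside tumours. Cyp2b13 is high there too, but reaches 7.40 in CD8kMup HCC 8. Cyp2a4 reaches 14.65 in a tumour and 11.54 at most outside tumours.

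Of 7 tested Cyp2d members, 6 were lower (median -0.79). Cyp2d40 differed by -2.30 (SE 0.30), Cyp2d13 by -2.24 (SE 0.21) and Cyp2d9, a male-biased steroid hydroxylase, by -2.04 (SE 0.33). Cyp2d26 (-0.79), Cyp2d22 (-0.49) and Cyp2d10 (-0.43) followed. Under quantile normalization the Cyp2d26 call ended (-0.39, adjusted p = 0.089) and Cyp2d10 changed sign (0.04, adjusted p = 0.74). Cyp2d12, at 0.25 (SE 0.32), was not called.

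Single members of other subfamilies were also lower. Cyp2f2, a periportal enzyme that activates naphthalene, differed by -1.52 (SE 0.34, adjusted p = 0.0005). Cyp2u1, a fatty acid hydroxylase, differed by -1.53 (SE 0.22), Cyp2j5, an epoxygenase, by -1.32 (SE 0.15), Cyp2r1, the vitamin D hydroxylase of liver, by -0.64 (SE 0.09) and Cyp2j9 by -0.51 (SE 0.18). Cyp2j9 was at 4.80, 4.93, 5.02 and 4.52 in MupHe HCC and at 6.09, 5.67 and 6.01 in MupHe NASH. In IgAkMup it was at 5.38, 4.59, 4.41 and 5.97 in HCC and at 5.19, 4.78 and 5.04 in NASH, which overlap. The Cyp2j9 call did not hold under every setting run. Cyp2j6, Cyp2g1 and the AhR targets Cyp1a1 and Cyp1b1 were not called. Cyp1a1 was at 6.51 in MupHe HCC 2, 5.43 in MupHe HCC 7 and 4.74 in IgAkMup HCC 7, and between 3.05 and 3.72 in the other 5 tumours of the pair.

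Across the subfamilies, the 11 CAR and PXR targets among the members were all lower, with a median of -3.49. Of 7 members known from the pericentral zone, 6 were lower (median -4.001), and Cyp2a5 was the exception. Each of these counts stands beside the 22.9% of all tested genes that were lower. Both lists regroup members already given by subfamily, so their counts are not further evidence. The periportal Cyp2f2 was lower too. The lists were written from general knowledge with earlier results of these data known.

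Each genotype was also compared on its own. In MupHe, 20 members were lower and 2 higher, against 14.7% and 16% of all tested genes. The higher members were Cyp1a1 (1.17, adjusted p = 0.033), whose call ended without any of 5 single libraries, furthest without MupHe HCC 2 (0.61, adjusted p = 0.17), and Cyp2d12 (1.22, adjusted p = 0.043), whose call ended without any of 6 single libraries. In IgAkMup, 28 members were lower and 1, Cyp2c40, was higher (1.21, adjusted p = 0.019), against 20.7% and 23.2% of all tested genes. That Cyp2c40 call ended without IgAkMup HCC 7 (0.85, adjusted p = 0.087) or IgAkMup NASH 3 (1.15, adjusted p = 0.059).

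The 2 genotypes differed in the change from NASH to HCC for 7 members, and not all of these fell in both. In MupHe, Cyp2d10 was at 11.73 to 12.10 in HCC against 11.77 to 12.20 in NASH, which overlap. Cyp2d22 was at 9.93 to 11.04 against 10.59 to 10.66 there, which overlap too. In IgAkMup, tumours lay below NASH livers for Cyp2d10 (11.41 to 11.67 against 12.14 to 12.60) and Cyp2d22 (9.55 to 9.96 against 10.61 to 10.67). The change from NASH to HCC was more negative in IgAkMup for 5 members (Cyp2f2, Cyp2c44, Cyp2r1, Cyp2d10 and Cyp2d22) and more positive for 2 (Cyp2d13 and Cyp2j9), against 5.2% and 4.82% of all tested genes. Cyp2f2 showed the largest such difference, -2.83 (SE 0.67, adjusted p = 0.0086). It was at 12.06, 12.50 and 12.41 in MupHe NASH and at 12.96, 10.05, 13.22 and 12.65 in MupHe HCC. In IgAkMup it was at 12.26, 12.19 and 12.42 in NASH and at 8.36, 9.72, 10.65 and 8.72 in HCC. All 4 IgAkMup tumours lay below the NASH livers, whereas 3 of 4 MupHe tumours lay above them and MupHe HCC 3 lay below. Without the 3 tumours that stood apart, Cyp2f2 was higher in MupHe tumours than in MupHe NASH (0.62, adjusted p = 0.025).

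Cyp2r1 fell by 1.16 in IgAkMup and differed by -0.12 in MupHe, and the difference between genotypes was -1.05 (SE 0.18, adjusted p = 0.00076). For Cyp2c44 the difference between genotypes was -1.51 (SE 0.33, adjusted p = 0.0047). For Cyp2d13 it was 1.56 (SE 0.43, adjusted p = 0.02) and for Cyp2j9 1.19 (SE 0.35, adjusted p = 0.031). The Cyp2d13 call ended without MupHe NASH 6 (1.44, adjusted p = 0.053) or IgAkMup NASH 3 (1.35, adjusted p = 0.072), the Cyp2j9 call without any of 6 single libraries and the Cyp2d22 call without any of 10. MupHe NASH carries the tag Tri N and IgAkMup NASH the tag SS N, so genotype and tag cannot be told apart here. In a comparison added after the values were seen, Tri N groups minus SS N groups among HFD control and NASH livers, Cyp2d13 was higher by 1.46, Cyp2j9 higher by 0.87 and Cyp2r1 lower by 0.30, the last a call that ended without any of 9 single libraries. These 1 lower and 2 higher members stand beside 5.15% lower and 7.94% higher of all tested genes. When the 4 groups were fitted alone, none of the 7 differences between genotypes was called. Their adjusted p-values then lay between 0.059 for Cyp2r1 and 0.23 for Cyp2d22. Without the 3 tumours that stood apart, 11 members were more negative in IgAkMup and 1 more positive, beside 9.25% and 8% of all tested genes.

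Within tumours alone, which share a tag, 8 members were lower in IgAkMup than in MupHe and 0 higher, against 6.01% and 4.12% of all tested genes. They were Cyp2f2 (-2.86, SE 0.44, adjusted p = 0.00027), Cyp2d12 (-1.71), Cyp3a25 (-1.46), Cyp1a1 (-1.20), Cyp2c44 (-1.09), Cyp2d22 (-0.74), Cyp2r1 (-0.66) and Cyp2d10 (-0.42). Fitted on these 2 groups alone, none of the 8 was called, and Cyp2f2 then had an adjusted p of 0.63 at the same difference. Without the 3 tumours that stood apart, 10 members were lower and 2 higher (Cyp2b9 and Cyp2c40), beside 9.01% and 7.14% of all tested genes. The Cyp1a1 call ended without any of 5 single tumours, furthest without MupHe HCC 2 (-0.64, adjusted p = 0.22). The Cyp2d12 and Cyp2d10 calls ended without MupHe HCC 4 (-1.53, adjusted p = 0.051, and -0.37, adjusted p = 0.081).

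CD8kMup tumours held more RNA of 4 Cyp2c members than MupHe tumours. Against MupHe tumours, 4 members were higher and 0 lower, with 0.705% and 0.616% of all tested genes. Cyp2c29 was at 9.84, 11.09 and 12.37 in CD8kMup HCC, 2.50 above MupHe (SE 0.60, adjusted p = 0.039). Cyp2c50 was at 9.26, 10.36 and 10.97, and was 2.45 higher (SE 0.49, adjusted p = 0.015). Cyp2c37 was 2.33 higher and Cyp2c54 2.00 higher. Each of the 4 calls ended without CD8kMup HCC 4, without CD8kMup HCC 8 and without MupHe HCC 7. For Cyp2c50 the differences were then 2.37 (adjusted p = 0.11), 2.07 (adjusted p = 0.086) and 2.36 (adjusted p = 0.053). None was called when these 2 groups were fitted alone.

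For CD8kMup the only non-tumour group used here is NC, so its tumours differ from it in diet and tag as well as in stage. Here 22 members were lower and 1 higher, against 17% and 16.8% of all tested genes. The number higher was 3 with these groups alone, 5 with array weights and 5 without the 3 tumours that stood apart, beside 20.9%, 25.9% and 20.4% of all tested genes. The largest falls were Cyp2c54 (-3.48, SE 0.55), Cyp2c50 (-3.03, SE 0.53) and Cyp2c29 (-2.77, SE 0.64). In the other subfamilies Cyp2b10 differed by -2.48, Cyp3a11 by -2.37, Cyp2d13 by -2.23, Cyp2u1 by -1.25, Cyp2j9 by -1.18 and Cyp2a12 by -0.68. Without CD8kMup HCC 3, Cyp2u1 was at -0.87 (adjusted p = 0.063). Cyp1b1, an AhR target also expressed outside hepatocytes, was the member called higher (0.72, SE 0.19, adjusted p = 0.0049). It was at 4.81, 4.88 and 4.44 in these tumours, and the CD8kMup NC livers, between 3.91 and 4.12, did not overlap with them. In the same comparison macrophage markers were higher in 7 of 12 cases and lower in 2, with a mean level per library of 8.20 to 8.65 against 7.85 to 7.89. Stellate and fibroblast markers were higher in 3 of 10 cases, the collagens Col1a1 (1.37), Col1a2 (1.36) and Col3a1 (1.38), with a mean level of 7.50 to 7.75 against 7.14 to 7.44. Their part in the Cyp1b1 difference was not tested.

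Genes that serve the P450 enzymes were compared in the same way, again beside 22.9% lower and 25.5% higher of all tested genes. Of 13 genes for electron donors and heme synthesis, 8 were lower and 2 higher in HCC than in NASH. Cpox (-1.57, SE 0.15), Alas1 (-1.27, SE 0.32) and Alad (-1.06, SE 0.08) make heme, and Cyb5a (-0.90, SE 0.12) passes electrons. Por, the main electron donor, differed by -0.48 (SE 0.23, adjusted p = 0.093). Of 25 tested regulators, 13 were lower and 1 was higher. Tbx3, a pericentral transcription factor, fell by 2.68 (SE 0.27), Nr1i3 (CAR) by 2.38 (SE 0.44), Ahr by 1.59 (SE 0.18) and Nr0b2, a corepressor, by 1.24 (SE 0.29). Nr1i2 (PXR) differed by -0.47 (adjusted p = 0.028), and Hnf4a by -0.12 (SE 0.08, adjusted p = 0.24).

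Markers of other cells moved between NASH and HCC too. All 12 tested cell division genes were higher. Of 12 macrophage markers, 6 were higher and 4 lower, among them Cd14 at 2.49 and the resident macrophage genes Marco at -3.33 and Clec4f at -2.44. Stellate and fibroblast markers were higher in 5 of 10 cases and lower in 3, endothelial markers higher in 2 of 10 and lower in 5, cholangiocyte markers higher in 3 of 7, and lymphocyte markers higher in 2 of 6. Over these lists, the mean level per library ran from 7.67 to 8.57 for macrophage markers in MupHe and IgAkMup tumours and from 8.06 to 8.68 in their NASH livers. For hepatocyte secreted genes the ranges were 14.40 to 15.70 and 14.94 to 15.44. The part of other cells in the P450 differences was not tested.

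Between B6 HFD control livers and B6 NC livers, more members were lower than higher on the diet. The first carry the tag SS N and the second Tri NC, so diet and tag cannot be told apart. Between these groups, 10 members were lower and 3 higher, against 11% and 9.59% of all tested genes, and the median difference was -0.55. The number higher is thus near the background. The 3 higher members lie in the chromosome 7 cluster. Cyp2b9 was at 6.41, 5.46 and 7.50 in B6 NC and at 11.70, 11.67 and 10.37 in B6 HFD control, a difference of 4.79 (SE 1.05, adjusted p = 0.0018). Cyp2b13 was at 3.04, 3.32 and 3.38 in NC and at 6.56, 8.02 and 4.48 on the diet, a difference of 3.10 (SE 0.75, adjusted p = 0.0041). Neither pair of groups overlapped. Cyp2a22 was 2.76 higher (SE 0.62, adjusted p = 0.0021).

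Other members of that cluster were not called higher, and differences between neighbours were not tested. Cyp2b10, whose promoter is shown above, was at 7.53, 5.87 and 7.64 in B6 NC and at 5.36, 6.69 and 5.95 on the diet, which overlap (-1.01, SE 0.47, adjusted p = 0.13). Cyp2a5 was at 13.04, 13.63 and 11.63 and then at 11.76, 12.39 and 11.40 (-0.92, SE 0.96, adjusted p = 0.54). Cyp2a4 was at 5.26, 5.57 and 5.67 in NC and at 8.03, 6.48 and 10.74 on the diet. Its groups did not overlap, but the difference of 2.91, as large as that of Cyp2a22, had an SE of 1.52 (adjusted p = 0.18).

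Of the 10 lower members, 7 were Cyp2c genes. Cyp2c54 fell by 3.22 (SE 0.55, adjusted p = 0.00015), from 11.51, 11.33 and 11.55 in B6 NC to 7.93, 10.43 and 6.38 on the diet. Cyp2c70 fell by 1.80 (SE 0.26, adjusted p = 2.1e-05), with all diet values (10.20, 10.79 and 10.30) below all NC values (12.03, 12.23 and 12.40). Cyp2c37, Cyp2c50, Cyp2c40, Cyp2c55 and Cyp2c44 differed by -1.77 to -0.95. With B6 HFD control 3 left out, Cyp2c37 was at -0.89 (adjusted p = 0.24) and Cyp2c50 at -0.93 (adjusted p = 0.22), neither called. The Cyp2c37 call also ended without B6 NC 3 (-1.67, adjusted p = 0.059) and the Cyp2c50 call without B6 NC 1 (-1.71, adjusted p = 0.059). Leaving out B6 NC 3 put Cyp2c40 at -0.74 (adjusted p = 0.21), and leaving out B6 HFD control 3 put it at -1.38 (adjusted p = 0.067). Cyp2c44 was not called with B6 HFD control 1 left out (-0.75, adjusted p = 0.061), nor Cyp2c55 with any of 5 single libraries left out. The other lower members were Cyp2d13 (-1.76), Cyp2j9 (-1.19) and Cyp2g1 (-0.73). Cyp2d13 and Cyp2j9 are also called between the tags, as given above. Cyp2d13 was at 10.13, 9.94 and 9.70 in B6 NC and at 7.63, 8.98 and 7.90 in B6 HFD control (SS N), but at 9.90, 9.91 and 9.91 in IgAkCLM HFD control (Tri N) on the same diet. Cyp2j9 was at 6.80, 6.60 and 6.28 in B6 NC, at 5.08, 5.71 and 5.34 in B6 HFD control and at 5.99, 6.40 and 6.22 in IgAkCLM HFD control. For both genes the low values are those of the SS N group, and diet and tag cannot be told apart in B6. Of the 11 CAR and PXR targets 4 were lower and 2 higher, and of 4 tested female-biased members 1 was lower and 2 were higher.

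**Figure D3:**
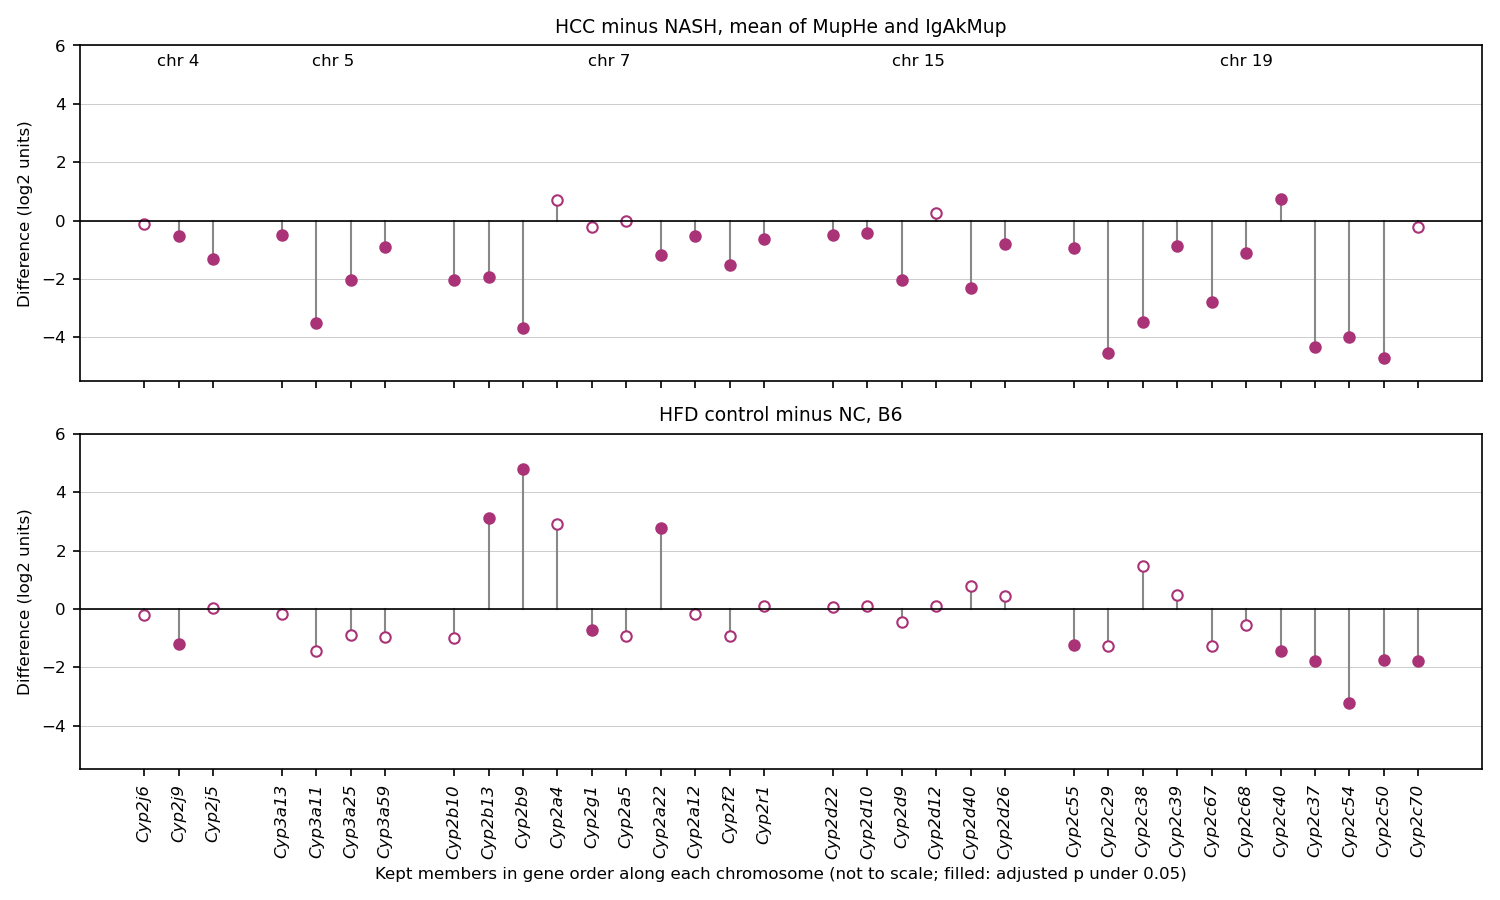
Differences of 34 tested members in their order along 5 chromosomes, for HCC minus NASH (top) and B6 HFD control minus B6 NC (bottom). The 5 tested members not shown are Cyp1a1, Cyp1b1 and Cyp2u1, on other chromosomes, and Cyp2c44 and Cyp2d13, which had no GENCODE position. The y axes are log2 differences, each stem is a gene, filled points have an adjusted p under 0.05, and spacing is not to scale. Cyp2b13, Cyp2b9 and Cyp2a22 were higher in B6 HFD control and lower in tumours beside neighbours that were not called higher in B6 HFD control, and the largest falls in tumours are on chromosome 19.

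Other lists stand beside the same 11% lower and 9.59% higher of all tested genes. Macrophage markers were higher in 7 of 12 cases between B6 NC and B6 HFD control, and their mean level per library ran from 7.42 to 7.79 in NC and from 8.34 to 8.66 on the diet. Their part in the diet differences was not tested. Among regulators 5 were lower and 1 higher, with Bcl6, a male-biased repressor, at -2.54 (SE 0.71, adjusted p = 0.012) and Tbx3 at -1.31 (SE 0.40, adjusted p = 0.021).

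In the genotypes with NASH, the diet, the disease stage and the tag differ together from NC. The NC groups carry Tri NC, MupHe NASH Tri N and IgAkMup NASH SS N, so these cannot be told apart. Between MupHe NC and MupHe NASH 3 members were lower and 2 higher, against 0.981% and 0.948% of all tested genes. The higher ones were again Cyp2b9 (4.79, SE 1.05, adjusted p = 0.011) and Cyp2b13 (2.86, SE 0.75, adjusted p = 0.042), and the lower ones were Cyp3a59 (-1.54), Cyp2c70 (-1.46) and Cyp2g1 (-0.81). Cyp2b9 was at 5.63, 5.67 and 6.21 in NC and at 10.75, 10.92 and 10.23 in NASH. Its call ended without MupHe NC 2 (4.71, adjusted p = 0.052) or MupHe NASH 2 (4.65, adjusted p = 0.059), and the Cyp2b13 and Cyp3a59 calls ended without any 1 of the 6 libraries. Without MupHe NASH 6, Cyp2g1 was at -0.73 (adjusted p = 0.075).

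Between IgAkMup NC and IgAkMup NASH 7 members were lower and 0 higher, against 7.39% and 5.53% of all tested genes. Cyp2c55 fell by 2.12 (SE 0.41, adjusted p = 0.001), Cyp3a59 by 1.53, Cyp2b10 by 1.48, Cyp2j9 by 1.27, Cyp2d13 by 1.17, Cyp2c70 by 0.79 and Cyp2g1 by 0.70. Of these only Cyp2c55 and Cyp2j9 were called in every fit that left out 1 library. Cyp2j9 and Cyp2d13 are also called between the tags, lower in SS N, the tag of IgAkMup NASH. Neither was called between MupHe NC and MupHe NASH. Cyp2b9 was at 6.72, 8.24 and 7.28 in NC and at 10.50, 10.39 and 10.55 in NASH. These groups did not overlap, and the difference of 3.07 had an SE of 1.05 (adjusted p = 0.052). Cyp2b13 differed by 1.98 (SE 0.75, adjusted p = 0.082).

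The fit over all groups uses 1 spread for groups as unlike as NC livers and tumours. Fitted on the 2 compared groups alone, 16 members were lower and 6 higher in MupHe NASH than in NC, where 8.45% and 7.14% of all tested genes were. In IgAkMup NASH 16 were lower and 6 higher, where 15.1% and 14.1% of all tested genes were, so the higher members there are near the background. In the latter fit Cyp2b9 had an adjusted p of 8e-05 at the same difference. In B6, 14 were then lower and 6 higher, beside 10.6% and 10.9% of all tested genes, with Cyp2a4 (adjusted p = 0.046), Cyp2c38 (1.48, adjusted p = 0.019) and Cyp2d40 (0.77, adjusted p = 0.008) added to the higher ones. Cyp3a11 was lower in that fit in all 3 genotypes, by 1.46 in B6, 1.19 in MupHe and 1.37 in IgAkMup.

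**Figure D4:**
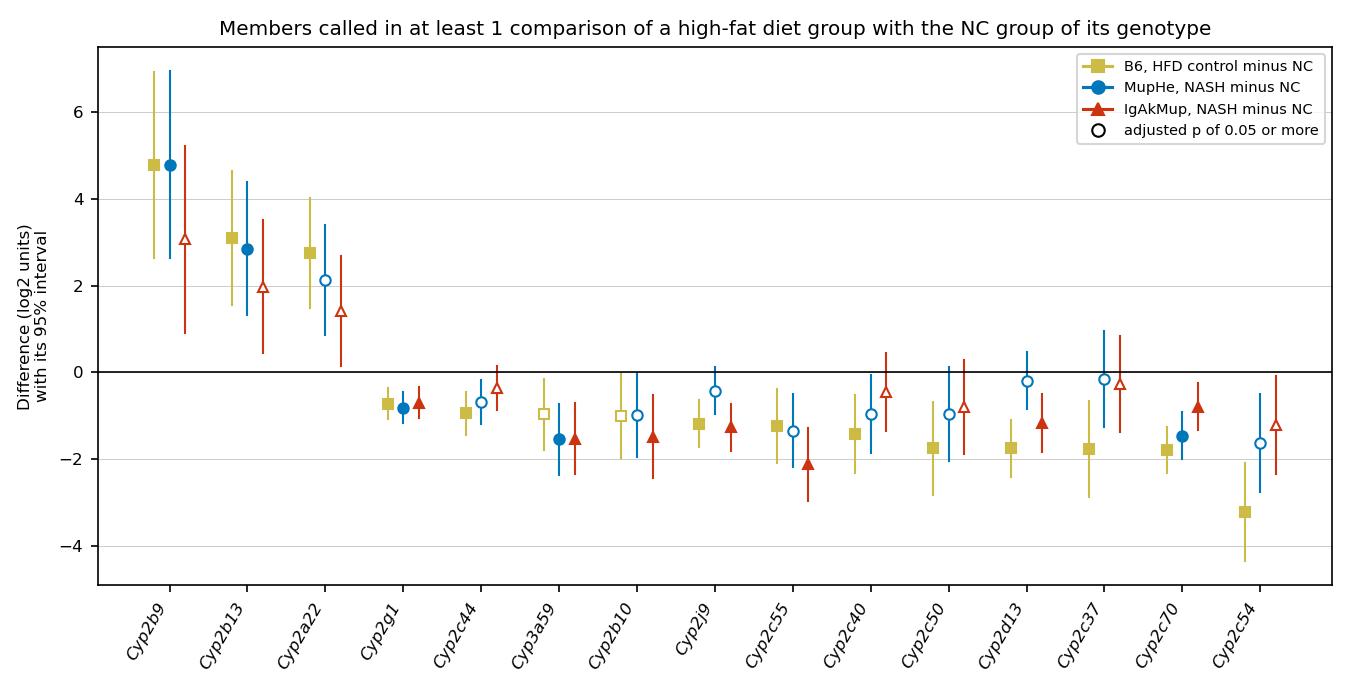
Difference from the NC group of the same genotype for the 15 members called in at least 1 of 3 comparisons. The y axis is the log2 difference, symbols mark B6 HFD control, MupHe NASH and IgAkMup NASH, lines are 95% intervals and filled symbols have an adjusted p under 0.05. Cyp2b9, Cyp2b13 and Cyp2a22 lie above 0 in each genotype, and the other 12 lie below 0.

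Between NASH and fatty liver, 1 member was called. Within each pair the genotype differs along with the stage, so genotype and stage cannot be told apart here. In the mean of the 2 pairs that share a tag, 1 member was higher and 0 lower in NASH than in HFD control, against 1.05% and 0.276% of all tested genes, and 5 members had an unadjusted p under 0.05. Cyp1b1 was that member (0.62, SE 0.14, adjusted p = 0.013). It was at 4.11, 4.19 and 4.07 in MupHe NASH and at 3.52, 3.21 and 3.36 in IgAkCLM HFD control, then at 4.22, 4.001 and 4.18 in IgAkMup NASH and at 3.82, 3.46 and 3.67 in B6 HFD control. Neither pair overlapped. With B6 HFD control 2 left out it was not called (0.57, adjusted p = 0.056). In the NC groups, Cyp1b1 was at 4.17, 4.25 and 4.001 in MupHe and at 3.61, 3.49 and 3.68 in B6.

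For MupHe NASH against IgAkCLM HFD control, limma called 0 members, with 0.446% of all tested genes higher and 0.113% lower. Without adjustment, 5 members were under 0.05. Fitted on these groups alone, 3 members were lower and 5 higher, beside 2.96% and 3.08% of all tested genes, and with array weights 4 were lower and 4 higher, beside 7.61% and 8.12%. For IgAkMup NASH against B6 HFD control it called 0, with 0.211% higher and 0.0405% lower, and without adjustment 6 were under 0.05. There the groups alone gave 1 higher member, and array weights gave 3. In the mean of the pairs the groups alone gave 4 higher, and array weights gave 5 higher and 2 lower. Cyp2a4 differed by 2.25 (SE 1.52) in the first pair and by 2.32 (SE 1.52) in the second. Fitted on each pair alone, its adjusted p was 0.034 in the first and 0.27 in the second. Cyp3a11 differed by 1.23 (SE 0.67) in the first pair and by 0.45 (SE 0.67) in the second.

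The NC livers allow genotypes to be compared without the disease. In the mean of MupHe, IgAkMup and CD8kMup against B6, limma called 0 members, with 0.17% of all tested genes higher and 0.0324% lower. Without adjustment, 5 members were under 0.05. Cyp2a4 stood at 5.26, 5.57 and 5.67 in B6, at 7.08, 5.91 and 7.03 in MupHe, at 8.47, 10.90 and 9.12 in IgAkMup and at 7.27, 9.06 and 9.13 in CD8kMup. Every other NC liver lay above the B6 livers. The difference was 2.72 (SE 1.24, adjusted p = 0.56), and in a fit of the NC groups alone it had an SE of 0.47 (adjusted p = 0.0071). Cyp2c37 was at 11.73, 11.70 and 12.03 in B6 and between 10.44 and 11.33 in the other NC livers, a difference of -0.94 (adjusted p = 0.58, and 5.8e-05 in the NC groups alone). In the fit of the NC groups alone 2 members were lower and 5 higher, beside 1.09% and 2.79% of all tested genes. Cyp1b1, the member called between NASH and HFD control, was among the higher ones (0.40, adjusted p = 0.029).

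The 15 varying members that were not tested are Cyp2b19, Cyp2b23, Cyp2c65, Cyp2c69, Cyp2d11, Cyp2d34, Cyp2j8, Cyp2j11, Cyp2j12, Cyp2j13, Cyp2s1, Cyp2w1, Cyp3a16, Cyp3a44 and Cyp3a57. Cyp2s1 had a mean of 2.71 and Cyp2c69 of 2.08. The female-biased Cyp3a16 and Cyp3a44 had means of 1.29 and 1.20. Cyp3a57 had group means between 1.26 and 1.35 outside tumours and of 2.11, 1.66 and 1.68 in MupHe, IgAkMup and CD8kMup tumours. Their low values are shrunk toward each gene's mean, so no comparison is drawn from them.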

How the data were processed

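RNA was isolated with AllPrep or with Trizol and RNeasy columns, and libraries were made from 100 ng with the TruSeq Stranded mRNA kit, per the labels' protocols. Cuffdiff is named for samples on the high-fat diet, HOMER and DESeq2 for NC samples, and STAR and mm10 for both, without versions or roles, per the submitters' processing notes. The authors deposited 1 table of rlog values on a log2 scale, with the program behind it and the counting of reads shared by genes not given in the sources used here. Of 41 columns, 6 were not used, because their names fit samples of both the CD8kMup NASH and the CD8kCLM HFD control group. No counts were used, so no counting interval is given.

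The 12337 genes averaging 3 or more across the 35 libraries were kept. One limma fit (3.58.1, R 4.3.3) held a mean per group, with eBayes and trend, two-sided tests and Benjamini-Hochberg adjustment over all kept genes at 0.05. It was tested on simulated data. 14 comparisons were planned and 1 was added. Members, gene lists and tests were chosen with earlier results of these data known. In each comparison the text names the most changed member of a subfamily, members against the main direction and those with textbook roles, and up to 4 genes of other lists. Alternatives were other filters, quantile normalization, median centring, array weights, the compared groups alone, each library left out, the tumours that stood apart left out, and a replicate block. Gene positions and transcripts came from GENCODE M21 (52 of 54 varying members matched) and promoters from RefSeq (46 of 54).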

Additional observations from a re-analysis of the deposited data

Results flagged for a closer look

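In the tumour groups of 4, the highest or lowest library was tested for its distance from the others, and 7 of 78 pairs of a member and a group passed, where chance passes about 1 in 20. Cyp2c50 was at 9.22 in MupHe HCC 2, with the other MupHe tumours between 7.13 and 7.45, and Cyp2c54 was at 7.51 in the same library against 5.60 to 5.89. MupHe HCC 3 was far below the others for Cyp3a11 (8.83 against 12.24 to 12.74), Cyp3a25 (8.80 against 10.61 to 10.98) and Cyp2d12 (3.45 against 5.55 to 5.59). Cyp2c70 was at 10.6 in MupHe HCC 4, against 11.09 to 11.13. Cyp2c55 was at 5.27 in IgAkMup HCC 8, against 3.68 to 3.82.

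The change from NASH to HCC differed between IgAkMup and MupHe, by a test of the difference itself in limma, for 7 members. It was -2.83 for Cyp2f2, -1.51 for Cyp2c44, -1.05 for Cyp2r1, -0.82 for Cyp2d10, -0.76 for Cyp2d22, 1.56 for Cyp2d13 and 1.19 for Cyp2j9, as IgAkMup minus MupHe.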

How the results depend on the processing

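Counts are members called in either direction. Fitted on the compared groups alone, the counts were 14 (against 22) for MupHe tumours against NASH, 0 (7) for the difference between genotypes in that change, 4 (1) for NASH against HFD control in the mean, 8 (0) in MupHe against IgAkCLM and 1 (0) in IgAkMup against B6. They were 20 (13) for the diet in B6, 22 (5) and 22 (7) for MupHe and IgAkMup NASH against NC, 7 (0) between NC genotypes, 0 (8) and 0 (4) for IgAkMup and CD8kMup tumours against MupHe tumours, and 6 (3) for Tri N against SS N. With array weights they were 13 for the difference between genotypes, 7, 8 and 3 for NASH against HFD control in the mean, in MupHe and in IgAkMup, 23 for the diet in B6, 21 and 22 for NASH against NC in MupHe and IgAkMup, 1 between NC genotypes, 1 for CD8kMup tumours against MupHe tumours and 9 for the tags.

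The difference between genotypes gave 4 calls under quantile normalization and 12 without the 3 tumours that stood apart. NASH against HFD control in the mean gave 0 with a minimum mean of 5. MupHe NASH against NC gave 3 with no filter and 3 with a minimum mean of 5, and CD8kMup against MupHe tumours gave 2 with no filter. Under quantile normalization the Cyp2d10 difference between HCC and NASH was 0.043 against -0.43. With 1 library left out, counts ran from 4 to 14 for the difference between genotypes (14 without MupHe HCC 3), 0 to 1 for IgAkMup NASH against B6 HFD control, 2 to 3 for MupHe and 3 to 5 for IgAkMup NASH against NC, 6 to 14 for IgAkMup against MupHe tumours and 0 to 8 for CD8kMup against MupHe tumours (8 without MupHe HCC 2). The cause of these changes was not tested. Of the 31 calls between HCC and NASH in the mean, 23 held under every setting run.

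Of all calls, the share lower moved from 51.9% to 61.9% with median centring and to 41% under quantile normalization for the difference between genotypes, from 59.3% to 48.1% under quantile normalization for IgAkMup against MupHe tumours, and from 16% to 32% under quantile normalization between NC genotypes. NC libraries with the same number in their titles correlated in their deviations at -0.21 to 0.23 (median 0.02). Those with different numbers did so at -0.28 to 0.24 (median -0.005), so no pairing by title number was seen. Some column names carry other numbers than the titles, and a pairing by these was not tested. The replicate block in the NC groups alone gave 7 calls (3 lower, 4 higher), and the same fit without it 7 (2 lower, 5 higher): with the block Cyp2a22 and Cyp2d13 were gained and Cyp2j6 and Cyp3a59 lost. Depth is unknown, so what it limits could not be measured.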
